A study of Homo sapiens with 9 samples.

Results

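The HOX genes are described here as they were measured in Rh30, an established human cell line of PAX3-FOXO1 fusion-positive rhabdomyosarcoma (FP-RMS), a soft tissue sarcoma with skeletal muscle features. All probe sets whose only gene symbol in the array annotation was HOXA, HOXB, HOXC or HOXD followed by a number were taken, whatever their values. This gave 44 of 54613 probe sets, for 28 of 19775 genes, and a gene with several was counted once, through the probe set with the highest mean over all arrays, called its brightest. HOXB was complete, with 10 of its 10 genes on 19 probe sets, and so was HOXC, with 9 of its 9 genes on 9 probe sets. HOXD was represented by 8 of its 9 genes on 15 probe sets, and HOXA only by HOXA2, 1 of its 11 genes. HOXD3 had 3 probe sets, all of which were shared with HOXD4, so they were not counted, and the other HOXA genes were not analysed here.

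RNA was measured on 9 Affymetrix U133 Plus 2.0 arrays, 3 each for xenografts, spheres and adherent cells, in biological triplicate. All 9 samples came from the same line and carry the PAX3-FOXO1 fusion. The xenografts were orthotopic tumors, raised according to the methods from adherent cells injected into the calf muscle of immunodeficient SCID/beige mice, while the sample labels describe flank tumors from adherent or sphere cells in Matrigel. The spheres were collected after 48 h without attachment in Neurobasal medium, to which 50 µg/ml insulin, 1X B27 and the growth factors EGF (40 ng/ml) and bFGF (80 ng/ml) were added, and the adherent monolayers grew in RPMI medium with 10% fetal bovine serum. Spheres therefore differed from adherent cells in medium, growth factors and attachment at once, and the effects of these cannot be told apart. The probes are human, so RNA of the mouse host in a xenograft could be seen only where it binds to a human probe. A xenograft is also bulk tissue, in which fewer cells that express a gene and less RNA per cell cannot be told apart.

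HOX genes encode homeodomain transcription factors that give cells their position along the body axis. They lie in clusters A to D, and genes of the same number in different clusters are paralogs, descended from a common ancestor gene. Low numbers are expressed toward the head and high numbers toward the tail and the ends of the limbs. Limb muscle precursors, which depend on PAX3, migrate from the somites and carry HOX expression with them. HOX proteins bind DNA together with TALE homeodomain partners of the PBX, MEIS and PKNOX families, and Polycomb and trithorax proteins keep HOX genes off or on.

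The start regions of HOXA2, HOXC4 and HOXD8 are shown because these genes were higher in spheres than in either other group and had a window in the RefSeq promoter table, which holds 250 bases before and 50 after the annotated start on GRCh38.p14. The table held a window for 11 of the 28 HOX genes. Capitals mark matches, on either strand, to TGATTNAT, a site bound by PBX with a HOX protein, and to TGACAG, a site of MEIS and PKNOX.
HOXA2, chr7:27102634-27102933, minus strand: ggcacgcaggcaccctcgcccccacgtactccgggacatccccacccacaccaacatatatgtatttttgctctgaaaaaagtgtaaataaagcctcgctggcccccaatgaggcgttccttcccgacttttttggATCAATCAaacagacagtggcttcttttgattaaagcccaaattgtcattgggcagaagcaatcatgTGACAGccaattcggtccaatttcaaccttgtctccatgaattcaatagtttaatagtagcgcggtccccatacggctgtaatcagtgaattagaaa
HOXC4, chr12:54016638-54016937, plus strand: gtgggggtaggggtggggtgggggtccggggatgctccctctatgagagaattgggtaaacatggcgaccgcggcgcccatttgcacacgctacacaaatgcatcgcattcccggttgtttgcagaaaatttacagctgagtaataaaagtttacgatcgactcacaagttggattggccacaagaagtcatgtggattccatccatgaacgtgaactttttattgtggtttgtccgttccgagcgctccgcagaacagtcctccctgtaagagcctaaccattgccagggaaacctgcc
HOXD8, chr2:176129455-176129754, plus strand: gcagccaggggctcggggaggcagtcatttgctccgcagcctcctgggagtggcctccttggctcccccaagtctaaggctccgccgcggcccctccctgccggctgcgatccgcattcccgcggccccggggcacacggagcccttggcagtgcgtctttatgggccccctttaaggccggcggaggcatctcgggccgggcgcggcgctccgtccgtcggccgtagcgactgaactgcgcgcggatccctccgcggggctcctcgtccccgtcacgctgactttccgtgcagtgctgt
The HOXA2 window held 1 TGATTNAT match, found as its reverse complement, and 1 TGACAG match. Of all 35116 windows in the table, 2.82% held TGATTNAT and 15.8% held TGACAG. The HOXC4 and HOXD8 windows held neither, and none of the 3 held TAATTA, a core homeodomain site present in 4.84% of all windows. These matches describe the letters of the windows and nothing more. The windows also differed in base composition. HOXD8 lay in GC-rich sequence, at 71.7% GC with 34 CpG dinucleotides, while HOXC4 had 51.7% GC with 15 CpG and HOXA2 had 46.3% GC with 11 CpG, beside medians of 58.7% and 14 over all windows. The HOXC4 window was identical to that of HOXC5, since RefSeq gives both genes a common start.

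Values are log2 values from Robust Multi-array Average (RMA) normalization, 1 per probe set, so a difference of 1 is a doubling. A change was called at an adjusted p under 0.05 (limma, two-sided, Benjamini-Hochberg over all 54613 probe sets). Brightness depends on the probes, so levels of different genes were not compared. As a guide to how bright a probe set with little transcript can be, 20 genes restricted to other tissues averaged from 2.37 to 7.37, with a median of 3.94 and a 90th percentile of 5.86. Of the 28 HOX genes, 17 averaged above that percentile and 6 above the highest of these genes. The highest was the pituitary hormone PRL, which itself rose by 2.08 in xenografts against adherent cells (limma adjusted p = 3.24e-07). Without PRL the highest was 6.03 and the 90th percentile 5.16, with 15 and 21 HOX genes above them. Of the markers of the line, the myogenic regulator MYOD1 was bright in xenografts, spheres and adherent cells, at 10.87, 11.07 and 11.12, while MYF5 was dim at 3.04, 2.81 and 3.0.

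As a whole, the HOX genes changed about as often as other genes. Between spheres and adherent cells 6 rose and 2 fell of 28, or 28.6%, where 29.8% of all 19775 genes changed (13.5% higher and 16.3% lower). Between xenografts and adherent cells 6 rose and 1 fell, or 25.0%, against 26.9% of all genes (12.6% higher and 14.3% lower). Between xenografts and spheres 6 were higher and 7 lower, or 46.4%, against 44.0% of all genes (25.7% higher and 18.3% lower). Shares this near the background are not a result about the HOX genes, and what follows is about which genes moved and where. The median HOX change was 0.12, 0.18 and 0.08 in these 3 comparisons, and the median of all genes was -0.04, 0.08 and 0.13. The comparisons share their arrays, so they are not independent of each other.

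**Figure D1:**
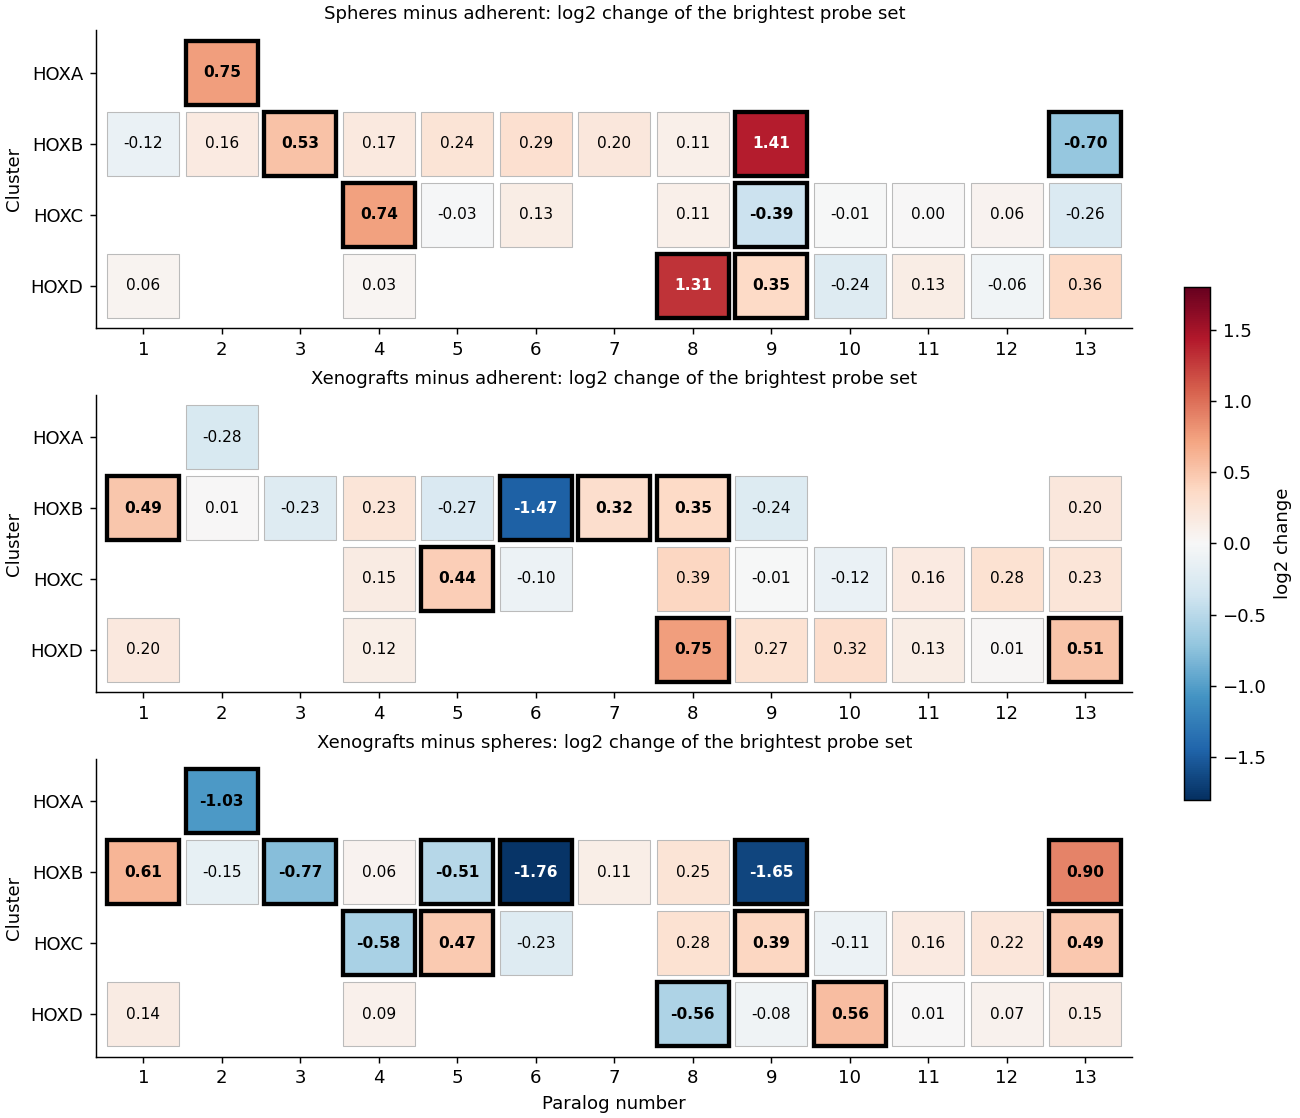
Log2 change of the brightest probe set of each HOX gene, by cluster (rows) and paralog number (columns), in 3 comparisons, with no box where a gene is absent or was not measured. Red is higher and blue lower in the group named first, and bold values with a thick outline had an adjusted p under 0.05 (limma): 8 genes in spheres against adherent cells, 7 in xenografts against adherent cells and 13 in xenografts against spheres.

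Of the 28 genes, 17 passed in at least 1 comparison and 11 in none. Only HOXD8 passed in both spheres and xenografts against adherent cells. Against both other groups, 5 genes were higher in spheres (HOXA2, HOXB3, HOXB9, HOXC4 and HOXD8), 2 were lower in spheres (HOXB13 and HOXC9), 2 were higher in xenografts (HOXB1 and HOXC5) and 1 was lower in xenografts (HOXB6). Shares of all genes with these combinations of calls were not counted, so the counts are not a result about HOX genes as a group. The 5 genes higher in spheres had numbers from 2 to 9 and came from every cluster, HOXA being represented by HOXA2 alone. The other kinds held too few genes to judge their spread. Of the 5 anterior genes, numbers 1 to 3, 2 rose in spheres and 1 in xenografts against adherent cells. Of the 11 central genes, numbers 4 to 8, 2 rose in spheres, and 4 rose and 1 fell in xenografts. Of the 12 posterior genes, numbers 9 to 13, 2 rose and 2 fell in spheres, and 1 rose in xenografts. Over all genes 13.5% rose and 16.3% fell in spheres, and 12.6% rose and 14.3% fell in xenografts. Differences between the regions were not tested.

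HOXB9, a posterior gene involved in the patterning of the thoracic skeleton, had the largest HOX change in spheres. It measured 5.87, 5.72 and 6.38 in xenografts and 7.72, 7.50 and 7.71 in spheres, against 6.18, 6.14 and 6.38 in adherent cells. Every sphere array lay above all others, and xenografts overlapped adherent cells. HOXB9 was 2.66-fold higher in spheres than in adherent cells (log2 change 1.41, SE 0.15, limma adjusted p = 3.72e-05), and xenografts lay 1.65 below spheres (log2 change -1.65, limma adjusted p = 8.97e-06). A second, dimmer HOXB9 probe set moved the same way by less, 0.45 in spheres against adherent cells (limma adjusted p = 0.0107) and -0.41 in xenografts against spheres (limma adjusted p = 0.0134).

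HOXD8 rose in both spheres and xenografts. It measured 6.83, 6.36 and 6.53 in xenografts and 7.18, 7.02 and 7.19 in spheres, against 5.64, 5.84 and 5.99 in adherent cells. The 3 groups did not overlap, with spheres highest and xenografts between spheres and adherent cells. Spheres were 2.47-fold above adherent cells (log2 change 1.31, SE 0.13, limma adjusted p = 2.22e-05) and xenografts 1.68-fold (log2 change 0.75, limma adjusted p = 0.00204). The difference between xenografts and spheres, -0.56, also passed (limma adjusted p = 0.00625).

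HOXA2, which patterns the hindbrain and the second pharyngeal arch, measured 5.61, 5.76 and 5.83 in xenografts and 6.61, 6.68 and 7.02 in spheres, against 6.08, 5.90 and 6.07 in adherent cells. Spheres lay above and xenografts below every adherent array. The rise in spheres was 0.75 (SE 0.12, limma adjusted p = 0.000608) and the difference between xenografts and spheres was -1.03 (limma adjusted p = 4.71e-05). The difference between xenografts and adherent cells, -0.28, did not pass (limma adjusted p = 0.116).

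HOXC4, a central gene with a role in the cervical and thoracic spine, measured 8.74, 8.85 and 8.87 in xenografts and 9.19, 9.65 and 9.36 in spheres, against 8.72, 8.54 and 8.73 in adherent cells. The xenografts lay just above the adherent range and below every sphere array. HOXC4 rose 1.67-fold in spheres (log2 change 0.74, SE 0.12, limma adjusted p = 0.000655) and was 0.15 higher in xenografts than in adherent cells, which did not pass (limma adjusted p = 0.378). RefSeq has HOXC4, HOXC5 and HOXC6 overlapping on chromosome 12. HOXC6 differed by 0.13 between spheres and adherent cells (limma adjusted p = 0.361) and HOXC5 by -0.03 (limma adjusted p = 0.92).

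HOXB3, which acts in the hindbrain and in blood progenitors, measured 7.98, 8.26 and 8.11 in xenografts and 8.91, 8.90 and 8.84 in spheres, against 8.32, 8.36 and 8.37 in adherent cells. It rose by 0.53 in spheres (SE 0.09, limma adjusted p = 0.00112). The xenografts were below every adherent array, a difference that did not pass (log2 change -0.23, limma adjusted p = 0.0979), and below spheres (log2 change -0.77, limma adjusted p = 6.63e-05). A second, dimmer HOXB3 probe set differed by 0.02 in spheres against adherent cells (limma adjusted p = 0.964), and the mean of both probe sets rose by 0.27 and narrowly missed the threshold (limma adjusted p = 0.0504). Between xenografts and spheres the dimmer probe set differed by 0.16, the opposite sign to the brightest, with overlapping arrays (limma adjusted p = 0.407). HOXB3 overlaps HOXB4 on chromosome 17. HOXB4 averaged 7.63 ± 0.03 in spheres and 7.46 ± 0.01 in adherent cells (SD, n = 3 each), a difference of 0.17 that did not pass (limma adjusted p = 0.254).

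HOXB13, best known from the prostate and the tail end of the body axis, went the other way. It measured 7.43, 7.65 and 7.60 in xenografts and 6.86, 6.40 and 6.72 in spheres, against 7.30, 7.43 and 7.34 in adherent cells. Spheres lay below both other groups with no overlap. The fall in spheres was -0.70 (SE 0.12, limma adjusted p = 0.00111), and xenografts were 1.86-fold above spheres (log2 change 0.90, limma adjusted p = 0.000148). The dimmer HOXB13 probe set did not pass in spheres against adherent cells (log2 change -0.05, limma adjusted p = 0.797), though its xenograft values were higher than those of spheres by 0.43 (limma adjusted p = 0.00753) and than those of adherent cells by 0.38 (limma adjusted p = 0.0242).

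The remaining calls in spheres, of HOXC9 and HOXD9, were lost when some of the arrays were left out. HOXC9 averaged 6.36 ± 0.08 in spheres and 6.75 ± 0.08 in adherent cells (SD, n = 3 each), with a fall of -0.39 (limma adjusted p = 0.0261) that no longer passed without adherent replicate 2 or 3 or without any 1 of the 3 sphere arrays (log2 change -0.34 to -0.42, limma adjusted p = 0.0532 to 0.0893). HOXD9, with the brightest probe set of the HOXD genes, measured 6.92, 6.81 and 6.87 in xenografts and 6.92, 6.84 and 7.09 in spheres, against 6.70, 6.40 and 6.69 in adherent cells. Xenografts lay above every adherent array by 0.27, which did not pass (limma adjusted p = 0.0931). The rise in spheres was 0.35 (limma adjusted p = 0.0317). Without adherent replicate 2, sphere replicate 1 or sphere replicate 3 this call was lost too (limma adjusted p = 0.141, 0.059 and 0.138). A dimmer HOXD9 probe set averaged 4.49 in both spheres and adherent cells. Paralogs of the same number thus had different calls in spheres. In paralog group 9 HOXB9 and HOXD9 rose and HOXC9 fell. In group 8 HOXD8 rose, while HOXC8 differed by 0.11 (limma adjusted p = 0.663). HOXB8 differed by 0.11 on its brightest probe set (limma adjusted p = 0.598) but rose by 0.98 on the other (limma adjusted p = 1.37e-05). In group 4 HOXC4 rose, while HOXB4 differed by 0.17 (limma adjusted p = 0.254) and HOXD4 by 0.03 (limma adjusted p = 0.887). HOXC8 and HOXD4 were dim, averaging 4.31 and 3.87 over all arrays, beside a median of 3.94 for the genes restricted to other tissues. In group 13 HOXB13 fell, HOXC13 differed by -0.26 (limma adjusted p = 0.105) and HOXD13 by 0.36 (limma adjusted p = 0.0613). Differences between paralogs were not tested.

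**Figure D2:**
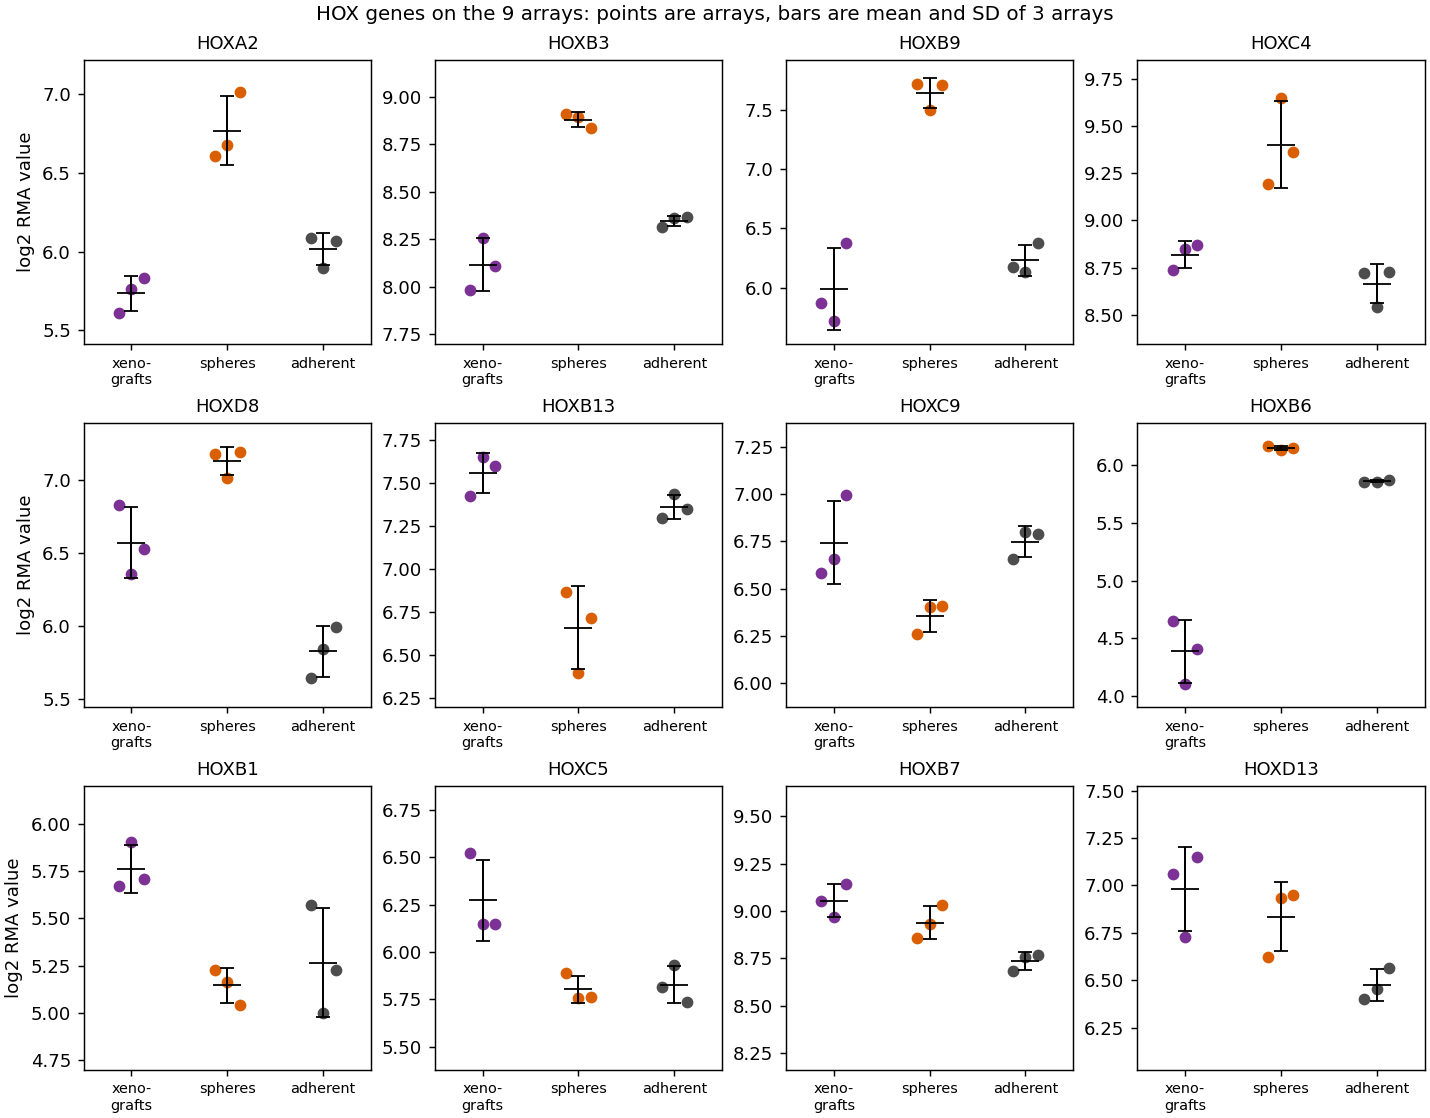
Log2 RMA values of 12 HOX genes on the 9 arrays, xenografts, spheres and adherent cells from left to right, with the mean and SD of 3 arrays. The top row and HOXD8 are highest in spheres, HOXB13 and HOXC9 are lowest in spheres, and HOXB6 is lowest in xenografts, at 4.65, 4.10 and 4.41; each panel has its own axis.

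HOXB6, a central gene active in trunk mesoderm and blood progenitors, was the 1 HOX gene that fell in xenografts. It measured 4.65, 4.10 and 4.41 in xenografts and 6.17, 6.13 and 6.15 in spheres, against 5.86, 5.85 and 5.87 in adherent cells. Spheres were above every adherent array by a margin that did not pass (log2 change 0.29, limma adjusted p = 0.114). The ratio of xenografts to adherent cells was 0.36 (log2 change -1.47, SE 0.12, limma adjusted p = 1.2e-05), and that of xenografts to spheres was 0.295 (log2 change -1.76, limma adjusted p = 1.05e-06). The probe set carries a suffix for sequence shared between transcripts. The other HOXB6 probe set was near the bottom of the scale, at 2.98, 2.94 and 2.93 on average in xenografts, spheres and adherent cells, and passed in no comparison.

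The 6 HOX genes that rose in xenografts against adherent cells rose by 0.75 at most, and of these HOXD8, described above, was the only one called whichever array was left out. HOXB1, an anterior gene of the hindbrain, measured 5.67, 5.90 and 5.71 in xenografts and 5.23, 5.17 and 5.04 in spheres, against 5.57, 5.0 and 5.23 in adherent cells. It was higher in xenografts by 0.49 than in adherent cells (SE 0.14, limma adjusted p = 0.0233) and by 0.61 than in spheres (limma adjusted p = 0.00436). Every xenograft array lay above all others, although adherent replicate 1 came close to the xenografts. A dimmer HOXB1 probe set differed by -0.02 between xenografts and adherent cells (limma adjusted p = 0.909). HOXC5 measured 6.52, 6.15 and 6.15 in xenografts and 5.89, 5.76 and 5.76 in spheres, against 5.81, 5.93 and 5.74 in adherent cells. It rose by 0.44 against adherent cells (limma adjusted p = 0.0173) and by 0.47 against spheres (limma adjusted p = 0.00772). HOXD13, which shapes the digits, measured 7.06, 6.73 and 7.15 in xenografts and 6.62, 6.93 and 6.95 in spheres, against 6.40, 6.45 and 6.57 in adherent cells. It rose by 0.51 in xenografts (SE 0.13, limma adjusted p = 0.0153), and spheres lay above the adherent range as well. Its other probe sets differed by 0.03 and 0.05 (limma adjusted p = 0.876 and 0.85), and the mean of all HOXD13 probe sets by 0.20, which did not pass (limma adjusted p = 0.141).

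HOXB7, with the brightest probe set of the HOXB genes, measured 9.05, 8.97 and 9.14 in xenografts and 8.86, 8.93 and 9.03 in spheres, against 8.68, 8.76 and 8.77 in adherent cells. It rose by 0.32 in xenografts (limma adjusted p = 0.0275). Its second probe set rose by 0.41 (limma adjusted p = 0.00984) and the third differed by 0.22 (limma adjusted p = 0.174). HOXB8 was dim, at 3.48 ± 0.23 in xenografts and 3.13 ± 0.07 in adherent cells (SD, n = 3 each), and its rise of 0.35 (limma adjusted p = 0.0469) was lost when any 1 of 8 of the 9 arrays was left out. Without adherent replicate 1, 2 or 3, only 3 HOX genes passed between xenografts and adherent cells, HOXB6 and HOXD8 each time, with HOXB1, HOXC5 and HOXD13 in turn. Calls over all genes, 2500 higher and 2829 lower with every array, then became 1722 and 2311, 1363 and 2060, and 1520 and 2135. When each array was centred on its own median, 4 HOX genes rose and 2 fell in xenografts, and after quantile normalization 8 rose and 1 fell. Over all genes, the same scalings turned 2500 higher and 2829 lower into 1836 and 3252, and into 3015 and 2111.

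Several measures moved with the groups alongside the HOX genes. Probe sets with means under 6 shifted up in xenografts against adherent cells by a median of 0.09 to 0.13, and those from 6 to 10 had medians of -0.05 to -0.13. As a base for the marker counts, 12.6% of all genes rose and 14.3% fell in xenografts against adherent cells. In spheres 13.5% rose and 16.3% fell. Of 10 fibroblast and stromal markers, 5 rose and 1 fell in xenografts against adherent cells. Their summed linear levels were 1827 to 3010 in xenografts and 1475 to 1579 in adherent cells. The fibroblast proteoglycan LUM rose by 2.82, at 8.31 on xenograft replicate 1 and 6.47 and 6.56 on replicates 2 and 3. The marker that fell was PDGFRB (log2 change -0.81, limma adjusted p = 0.000105), and PDGFRA and THY1 did not pass. Of 9 adult skeletal muscle markers, 4 rose, with summed levels of 708 to 848 in xenografts and 340 to 360 in adherent cells, among them the muscle actin ACTA1, by 3.22. Of 8 endothelial, 7 leukocyte, 3 blood and 5 adipocyte markers, 1 of each list rose. In lists this short, 1 gene cannot be told from the 12.6% of all genes. Endothelial sums were 165 to 208 in xenografts and 156 to 167 in adherent cells, which overlapped. Leukocyte sums of 163 to 187 in xenografts and 125 to 145 in adherent cells did not overlap, nor did blood sums of 130 to 140 in xenografts and 104 to 117 in adherent cells or adipocyte sums of 120 to 124 in xenografts and 98 to 110 in adherent cells. Of 10 rhabdomyosarcoma and myoblast markers, 2 rose and 4 fell in xenografts against adherent cells, with summed levels of 12077 to 12767 in xenografts and 12615 to 13137 in adherent cells. In spheres none of them rose and 4 fell, with sums of 10025 to 10649, among them the myogenic regulator MYOG by -0.91 (limma adjusted p = 2.79e-05) and the acetylcholine receptor subunit CHRNA1 by -0.64 (limma adjusted p = 0.00028). The part of host, stromal or other cells in the HOX changes was not tested. In spheres, the 3′ to 5′ difference of the actin control probe sets was 3.20 ± 0.09, against 2.39 ± 0.30 in adherent cells (SD, n = 3 each; exact permutation p = 0.1, two-sided, the smallest that 3 against 3 arrays allow), and that of the GAPDH controls was 0.62 ± 0.05 in spheres and 0.54 ± 0.13 in adherent cells. The poly-A control RNAs averaged 8.01 ± 0.41 in xenografts and 7.32 ± 0.17 in adherent cells, with no overlap (SD, n = 3 each; exact permutation p = 0.1, two-sided). The part of RNA quality and of the controls was not tested either.

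Between xenografts and spheres 3 more genes passed, which on their brightest probe sets had passed in neither comparison with adherent cells. HOXB5 averaged 6.15 ± 0.32 in xenografts and 6.66 ± 0.18 in spheres (log2 change -0.51, limma adjusted p = 0.018; SD, n = 3 each). Another HOXB5 probe set, nearly as bright, differed by -0.08 in this comparison (limma adjusted p = 0.547) and rose by 0.35 in spheres against adherent cells (limma adjusted p = 0.0277). HOXC13, a regulator of hair keratins, averaged 5.72 ± 0.04 in xenografts and 5.23 ± 0.19 in spheres (log2 change 0.49, limma adjusted p = 0.004). HOXD10, a gene of limb and spinal motor neuron patterning, averaged 5.23 ± 0.24 in xenografts and 4.68 ± 0.07 in spheres (log2 change 0.56, limma adjusted p = 0.00344). Its dimmer probe sets differed by 0.33 (limma adjusted p = 0.0395) and 0.12 (limma adjusted p = 0.327). Even its brightest probe set, at 4.94 over all arrays, lay under the 90th percentile of the genes restricted to other tissues, 5.16 without PRL. Of the 12 posterior genes, 4 were higher in xenografts than in spheres (HOXB13, HOXC9, HOXC13 and HOXD10) and 1 was lower. Of the 11 central genes, 1 was higher and 4 were lower (HOXB5, HOXB6, HOXC4 and HOXD8). Of the 5 anterior genes, 1 was higher and 2 were lower. Over all genes 25.7% were higher and 18.3% lower. Whether these regions differ was not tested. Probe sets with means under 6 were higher in xenografts than in spheres by medians of 0.10 to 0.17. Those from 6 to 10 had medians of -0.05 to -0.09. HOXB1, HOXC5, HOXC13 and HOXD10, all called higher, had means of 5.39, 5.97, 5.48 and 4.94. HOXB6, called lower, had a mean of 5.46. The part of this shift in the calls was not tested.

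The 11 genes called in no comparison were HOXB2, HOXB4, HOXC6, HOXC8, HOXC10, HOXC11, HOXC12, HOXD1, HOXD4, HOXD11 and HOXD12. Their changes ran from -0.06 to 0.17 in spheres against adherent cells, from -0.12 to 0.39 in xenografts against adherent cells and from -0.23 to 0.28 in xenografts against spheres. HOXB2, at 8.38 ± 0.07 in xenografts, 8.53 ± 0.13 in spheres and 8.37 ± 0.05 in adherent cells (SD, n = 3 each), had differences of 0.16 in spheres against adherent cells and -0.15 in xenografts against spheres. Its difference between xenografts and adherent cells was 0.01, with a 95% confidence interval of -0.20 to 0.21. HOXD12, a limb gene, was dim in all groups, at 2.60 in xenografts, 2.52 in spheres and 2.58 in adherent cells.

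Of the 13 genes with more than 1 probe set, 11 had probe sets with different calls in at least 1 comparison, and none had opposite calls. The widest gap between probe sets of a gene was that of HOXB6 in xenografts against spheres, -1.76 on one and 0.04 on the other. HOXB8, named here after its values were seen, also disagreed. Its second probe set measured 2.73, 2.69 and 2.86 in xenografts and 4.02, 3.94 and 3.81 in spheres, against 2.92, 2.92 and 3.0 in adherent cells. This was a rise of 0.98 in spheres (limma adjusted p = 1.37e-05) and a difference of -1.17 between xenografts and spheres (limma adjusted p = 2.8e-06). The HOXB8 probe set that stands for the gene in the counts above differed by 0.11 between spheres and adherent cells (limma adjusted p = 0.598). Counting all 44 probe sets singly, 9 rose and 2 fell in spheres against adherent cells, 25.0% beside 26.0% of all probe sets (13.3% higher and 12.6% lower). In xenografts against adherent cells 9 rose and 1 fell, 22.7% beside 23.0% (9.78% higher and 13.2% lower), and in xenografts against spheres 9 were higher and 9 lower, 40.9% beside 39.1% (20.6% higher and 18.5% lower).

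**Figure D3:**
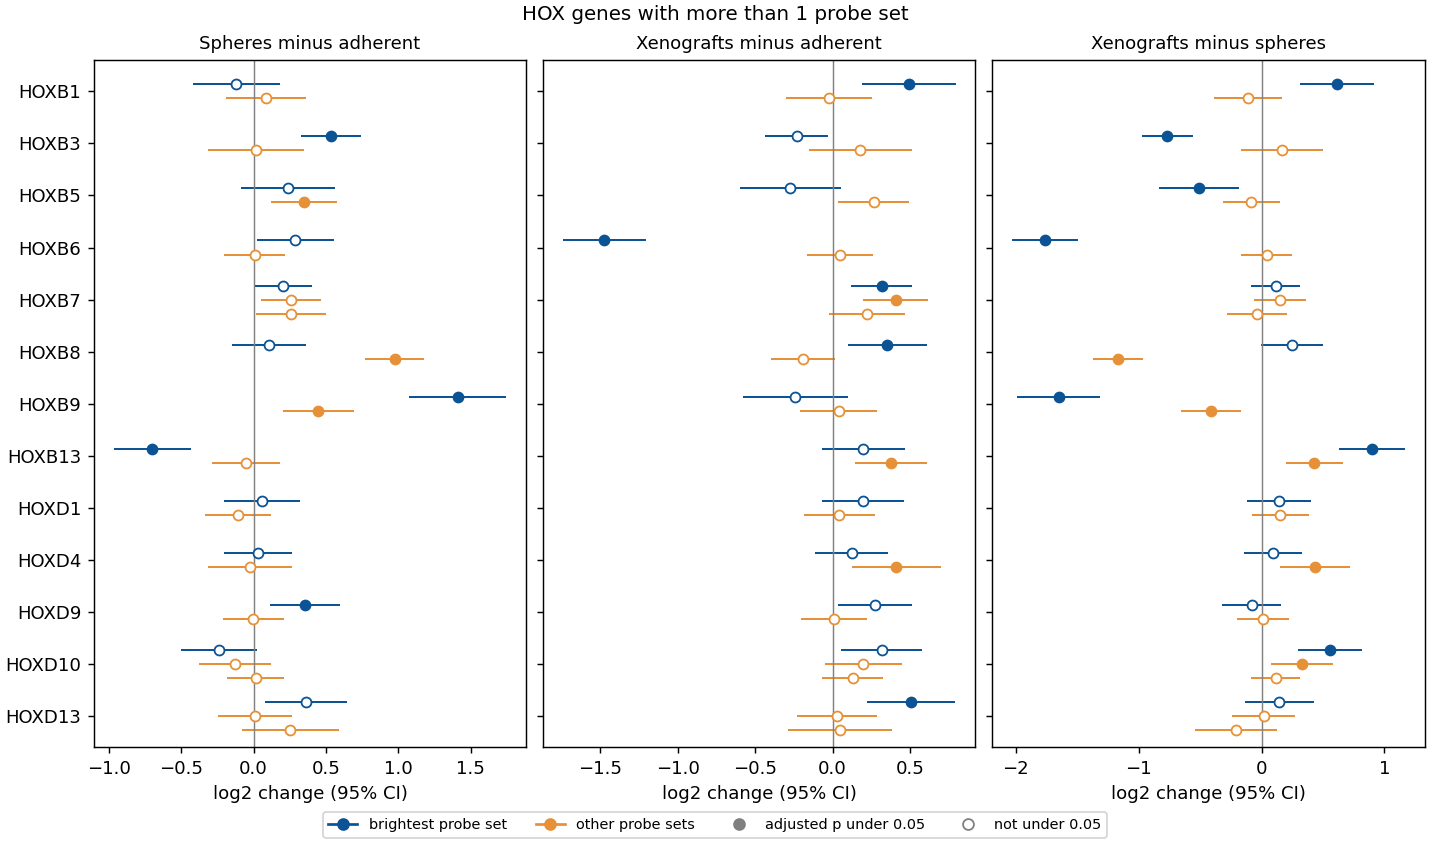
Log2 change with its 95% confidence interval for every probe set of the 13 HOX genes that have more than 1, in the 3 comparisons; blue marks the brightest probe set and filled points had an adjusted p under 0.05 (limma). In HOXB8 the dimmer probe set rose by 0.98 in spheres against adherent cells and the brighter differed by 0.11, while both HOXB9 probe sets rose.

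The HOX clusters also hold noncoding RNAs, of which 10 of 17 listed had a probe set of their own. Between spheres and adherent cells 1 rose and 1 fell, between xenografts and adherent cells 1 rose and 1 fell, and between xenografts and spheres 1 was higher and 2 lower, beside 29.8%, 26.9% and 44.0% of all genes called. HOXB-AS1, which in RefSeq overlaps HOXB2 and HOXB3, moved furthest. It measured 5.42, 6.12 and 6.0 in xenografts and 8.16, 7.89 and 8.0 in spheres, against 6.66, 6.19 and 6.46 in adherent cells. Spheres stood well above both other groups, by 1.58 over adherent cells (limma adjusted p = 4.3e-05), and xenografts were lower than spheres by 2.17 (log2 change -2.17, limma adjusted p = 3.1e-06). Its second probe set rose by 1.23 in spheres (limma adjusted p = 4e-05). HOXB-AS1 also fell in xenografts against adherent cells on the brighter probe set (log2 change -0.59, limma adjusted p = 0.031), but not on the second (log2 change -0.14, limma adjusted p = 0.48). HOXA-AS2 fell in spheres by -0.66 (limma adjusted p = 0.0039) and HOXA-AS3 rose in xenografts by 0.45 (limma adjusted p = 0.049). HOTAIR, a HOXC RNA studied for its effect on HOXD chromatin, was dim and lower in xenografts than in spheres (log2 change -0.58, limma adjusted p = 0.0011).

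Values were analysed for 8 TALE cofactors. In spheres 2 rose and 2 fell against adherent cells, and in xenografts 3 rose and 2 fell, where 29.8% and 26.9% of all genes changed. PBX4 measured 8.21, 7.97 and 7.86 in xenografts and 6.46, 6.46 and 6.22 in spheres, against 6.13, 6.37 and 6.43 in adherent cells. The xenografts stood apart from both cultures, 1.70 above adherent cells (limma adjusted p = 4.6e-06). PBX3 measured 8.87, 8.84 and 8.92 in xenografts and 9.56, 9.55 and 9.53 in spheres, against 10.06, 10.17 and 10.13 in adherent cells. It fell in both, by -1.24 in xenografts (limma adjusted p = 2.5e-06) and -0.58 in spheres (limma adjusted p = 0.00026), with no overlap of the groups.

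MEIS1, a partner of HOX proteins that also stabilizes them on DNA, rose in both. It measured 8.27, 7.94 and 8.20 in xenografts and 7.55, 7.64 and 7.66 in spheres, against 7.22, 7.13 and 7.20 in adherent cells, a rise of 0.95 in xenografts (limma adjusted p = 7.2e-05) and 0.44 in spheres (limma adjusted p = 0.0072). PBX2 rose in xenografts by 0.52 (limma adjusted p = 0.0032). The PKNOX genes moved in opposite directions in spheres, with PKNOX1 up by 0.34 (limma adjusted p = 0.03) and PKNOX2 down by -1.13 (limma adjusted p = 4.7e-06). PKNOX1 fell in xenografts against adherent cells by -0.64 (limma adjusted p = 0.0011). MEIS2 and the brightest MEIS3 probe set passed in no comparison, while a dimmer MEIS3 probe set rose by 0.45 in spheres (limma adjusted p = 0.0213).

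**Figure D4:**
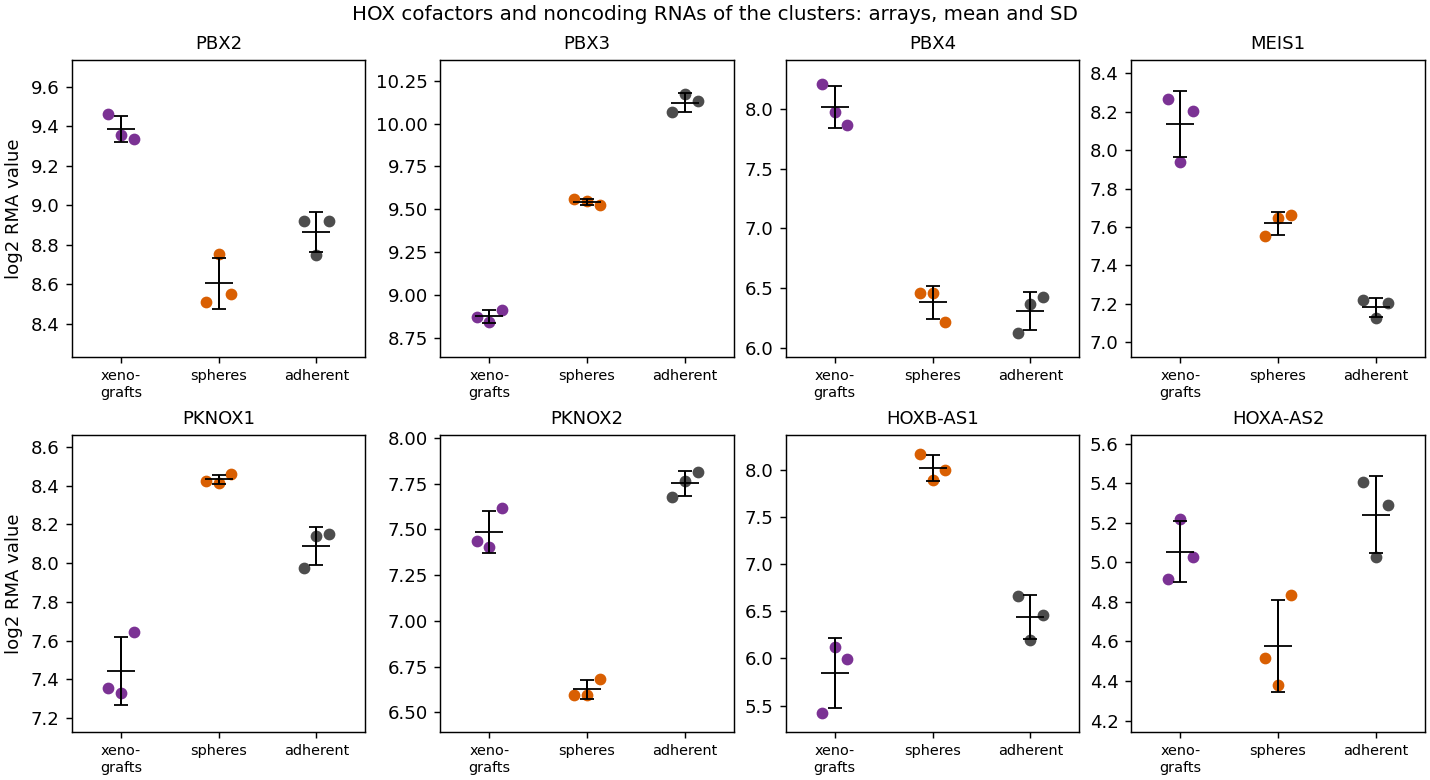
Log2 RMA values of 6 TALE cofactors and 2 noncoding RNAs of the HOX clusters on the 9 arrays, xenografts, spheres and adherent cells from left to right, with the mean and SD of 3 arrays; each panel has its own axis. PBX4 and MEIS1 are highest in xenografts, PBX3 is highest in adherent cells, PKNOX2 is lowest in spheres and HOXB-AS1 is highest in spheres.

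Polycomb genes, which maintain HOX silencing in development, fell more often than they rose. Of 11 measured of 15 listed, 1 rose and 6 fell in spheres against adherent cells, with a median change of -0.40, beside 13.5% higher, 16.3% lower and a median of -0.04 over all genes. In xenografts 1 rose and 6 fell, with a median of -0.39, beside 12.6% higher, 14.3% lower and a median of 0.08. CBX2, a reader of the Polycomb mark, measured 9.61, 9.47 and 9.84 in xenografts and 8.41, 8.18 and 8.20 in spheres, against 10.05, 10.02 and 10.11 in adherent cells. The groups did not overlap, and spheres were lowest (log2 change -1.79 against adherent cells, limma adjusted p = 7.2e-07). EZH2, the methyltransferase that writes the mark, fell by -0.40 in spheres (limma adjusted p = 0.03) and by -0.50 in xenografts (limma adjusted p = 0.013). Its relative EZH1 rose by 0.42 in spheres (limma adjusted p = 0.0029). Of the 11 trithorax and activating factors, 1 rose and 2 fell in spheres, and none rose and 3 fell in xenografts, near the 29.8% and 26.9% of all genes. WDR5, a subunit of the trithorax methyltransferases, fell by -1.13 in spheres (limma adjusted p = 2.6e-06) and by -0.73 in xenografts (limma adjusted p = 0.00014).

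Of 13 measured regulators upstream of HOX genes, 2 rose and 3 fell in spheres and likewise in xenografts, against adherent cells, beside 29.8% and 26.9% of all genes called. Retinoic acid switches on anterior HOX genes in development. ALDH1A2, which makes retinoic acid, measured 4.51, 4.37 and 4.33 in xenografts and 6.54, 6.34 and 6.40 in spheres, against 6.14, 6.10 and 6.08 in adherent cells. It fell in xenografts (log2 change -1.70, limma adjusted p = 7.9e-07) and rose in spheres (log2 change 0.32, limma adjusted p = 0.025). CYP26B1, which breaks retinoic acid down, fell by -1.35 in xenografts (limma adjusted p = 7.5e-06) and by -0.93 in spheres (limma adjusted p = 4.7e-05). The retinoic acid receptor RARA rose by 0.81 in xenografts (limma adjusted p = 0.00038) and by 0.58 in spheres (limma adjusted p = 0.0021), and its partner RXRA fell by -0.49 (limma adjusted p = 0.0077) and by -1.58 (limma adjusted p = 1.3e-06) in the same comparisons. FGF8, a growth factor of the embryonic tail bud, rose in xenografts by 0.82 (limma adjusted p = 0.0009) and fell in spheres by -1.35 (limma adjusted p = 1.4e-05).

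Of 11 measured genes that flank the clusters, 3 rose in spheres and none fell, and 2 rose and 2 fell in xenografts, against adherent cells, which is near the 29.8% and 26.9% of all genes. SKAP2, beside the HOXA cluster, measured 6.62, 7.21 and 7.44 in xenografts and 8.91, 9.0 and 8.85 in spheres, against 7.92, 8.07 and 7.98 in adherent cells. The 3 groups did not overlap, with a rise of 0.93 in spheres (limma adjusted p = 0.0014) and a fall of -0.90 in xenografts (limma adjusted p = 0.0027). LNPK, beside HOXD, followed the same order by less, at 0.37 in spheres (limma adjusted p = 0.018) and -0.37 in xenografts (limma adjusted p = 0.021).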

How the data were processed

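RNA from Rh30 xenografts, spheres and adherent cells was measured on Affymetrix U133 Plus 2.0 arrays, 3 per group. The authors normalized all arrays together by RMA (version not given in the sources used here) and deposited log2 values per probe set, not centred on the adherent mean; array medians ran from 4.78 to 4.87. RMA fixes the distribution of each array, so only changes relative to other probe sets are measured, and the number of arrays limits the precision.

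After 62 control probe sets were set aside, limma 3.58.1 (R 4.3.3) was run on the other 54613 (1 coefficient per group, 6 residual degrees of freedom, Benjamini-Hochberg adjustment, threshold 0.05), a procedure tested on simulated data. In the array annotation 41091 probe sets had 1 symbol, 1801 several and 11721 none listed. All 9 values were given for the genes with the largest changes and the brightest gene of each cluster, and means for the rest. Members, lists and tests were chosen with earlier results of these data known. Alternatives were scaling, filter, variance model, array weights, replicate block, the methods' t-test, a 2-fold threshold, the choice of probe set and leaving out each array. The xenograft route differs between the labels and the methods. RefSeq windows were matched by symbol.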

Additional observations from a re-analysis of the deposited data

Results flagged for a closer look

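For 4 HOX genes, every sphere array and every xenograft array lay on opposite sides of the range of the adherent cells, on the brightest probe set. No other probe set of HOXB3, HOXB6 or HOXD10 had this pattern. Between xenografts and spheres the dimmer HOXB3 probe set differed by 0.16 (limma adjusted p = 0.407) and the dimmer HOXB6 probe set by 0.04 (limma adjusted p = 0.75). HOXA2, HOXB3 and HOXB6 were below that range in xenografts and above it in spheres, and HOXD10 was above it in xenografts and below it in spheres. The difference between xenografts and spheres was -1.03 for HOXA2, -0.77 for HOXB3, -1.76 for HOXB6 and 0.56 for HOXD10 on the log2 scale, and limma's adjusted p for this difference was 4.71e-05, 6.63e-05, 1.05e-06 and 0.00344 in that order. Xenografts and spheres were set against the same 3 adherent arrays. For none of the 4 genes did both of the differences from adherent cells pass. The share of all genes with this pattern was not counted, so the pattern is not a result about HOX genes as a group.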

How the results depend on the processing

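Of the HOX calls, 5 of 8 between spheres and adherent cells (HOXA2, HOXB9, HOXB13, HOXC4 and HOXD8), 0 of 7 between xenografts and adherent cells and 4 of 13 between xenografts and spheres (HOXA2, HOXB3, HOXB9 and HOXB13) held under every alternative but the 2-fold threshold. With that threshold 2, 1 and 3 genes passed in these comparisons. None of the alternatives used the dimmer HOXB3 or HOXB13 probe set alone. The former differed by 0.16 in xenografts against spheres (limma adjusted p = 0.407) and the latter by -0.05 in spheres against adherent cells (limma adjusted p = 0.797). Array weights and the methods' t-test without adjustment each gave 13 genes in spheres against adherent cells. Over all genes, array weights gave 3507 higher and 4342 lower in this comparison, from 2671 and 3216. The t-test without adjustment was not counted over all genes. After Benjamini-Hochberg adjustment the methods' t-test gave 1 gene in xenografts against adherent cells and 6 in xenografts against spheres. Over all genes it turned 2500 higher and 2829 lower into 841 and 1398 in xenografts against adherent cells. In xenografts against spheres it turned 5077 and 3628 into 2380 and 2263. Leaving out 1 array gave 6 to 10 genes in spheres against adherent cells, 3 to 9 in xenografts against adherent cells and 12 to 15 in xenografts against spheres. Over all genes it gave 2104 to 2987 higher and 2572 to 3550 lower in spheres against adherent cells. In xenografts against adherent cells these ranges were 1363 to 2871 and 2060 to 3016. In xenografts against spheres they were 3517 to 5188 and 3048 to 3719. The cause was not tested. No clear pairing of arrays by number was seen. Of 9 same-numbered pairs, 2 had deviations correlated over 0.1, and 2 of 9 arrays were closest to their own number. With 3 arrays a group this check cannot exclude pairing. With the replicate block 8, 7 and 13 genes passed, the same genes except that in xenografts against adherent cells HOXB8 lost its call (limma adjusted p = 0.0738) and HOXC8 gained one.

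The sign changed for HOXB6 when probe sets with a suffix were left out, which replaces its probe set by the dim one, to 0.0484 in xenografts against adherent cells and 0.0414 in xenografts against spheres. Signs of differences that had not passed changed in spheres against adherent cells with an array left out for HOXB1 (-0.2531 to 0.0338) and HOXC5 (-0.0711 to 0.0274). HOXC9 changed sign in xenografts against adherent cells after quantile normalization (0.1336) and with an array left out (-0.1303 to 0.0759). In xenografts against spheres HOXB8 (-0.459) and HOXD13 (-0.0146) changed sign with the mean of all probe sets, and HOXD9 (0.0933) after quantile normalization. Of the values of named HOX genes under the alternatives, 497 of those called kept direction and call, 85 lost the call and 2 changed sign.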
